A study of Mus musculus with 2 samples.

Results

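Mpo, Prtn3, Elane and Ctsg, the 4 genes of the neutrophil azurophil granule examined here, were taken by name from the 11691 genes of a table of unique molecular identifiers (UMIs, 1 per captured transcript) and followed across 3071 Em-Ex and 2087 YS-Ex cells. Both libraries were made from C57/BL6 concepti at E8.5 with 5 to 7 somite pairs, whose embryo proper (Em-Ex) and yolk sac (YS-Ex) were separated and grown as explants for 10 days with SCF, IL-3 and FLT3L, each at 100 ng/ml. CD31+CD45+c-Kit+CD41- cells were then sorted, and 8600 cells of each culture were loaded on 1 droplet channel. Tissue of several concepti was pooled and each condition was 1 library, so no test between Em-Ex and YS-Ex could be made. The intervals below are exact 95% intervals that cover counting error only, and cells are not replicates of a condition.

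Azurophil granules are the first granules that neutrophil precursors fill, at the promyelocyte stage, and their contents kill engulfed microbes. Mpo encodes myeloperoxidase, a heme enzyme that makes hypochlorous acid. Prtn3, Elane and Ctsg encode the serine proteases proteinase 3, neutrophil elastase and cathepsin G, which are made as proforms in the endoplasmic reticulum, trimmed by the dipeptidase encoded by Ctsc and stored on the proteoglycan serglycin, encoded by Srgn. Monocyte precursors make the same proteins at lower levels, and transcription of these genes in myeloid progenitors is known to use PU.1, C/EBP, MYB and RUNX factors.

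The genes lie at 3 places of the GRCm38.p6 assembly. Mpo is on the plus strand of chromosome 11 (87793784 to 87804412), and Ctsg is on the minus strand of chromosome 14 (56099885 to 56102574), in a cluster with the mast cell chymase genes Mcpt4, Mcpt2, Mcpt1 and Cma1, the basophil protease gene Mcpt8 and the granzyme gene Gzmb. Prtn3 (79879667 to 79883174) and Elane (79886312 to 79888216) are neighbors on the plus strand of chromosome 10, with 3137 bases between them. The 250 bases before each RefSeq start are printed because the genes were detected together in single cells. They run over chr11:87793534-87793783 for Mpo, chr10:79879417-79879666 for Prtn3, chr10:79886062-79886311 for Elane and, on the minus strand, chr14:56102575-56102824 for Ctsg. Capitals mark AGGAAGT, the core letters of a PU.1 (ETS family) site.
Mpo: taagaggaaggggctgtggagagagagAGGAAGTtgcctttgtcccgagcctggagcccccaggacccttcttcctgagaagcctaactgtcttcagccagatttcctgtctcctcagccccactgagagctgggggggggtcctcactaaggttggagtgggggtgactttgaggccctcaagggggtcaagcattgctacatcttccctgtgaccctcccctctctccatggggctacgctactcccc
Prtn3: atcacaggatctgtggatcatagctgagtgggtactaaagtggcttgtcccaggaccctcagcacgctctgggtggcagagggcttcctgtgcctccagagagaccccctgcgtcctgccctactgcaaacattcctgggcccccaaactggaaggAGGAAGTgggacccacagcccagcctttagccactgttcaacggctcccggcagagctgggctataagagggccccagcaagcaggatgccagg
Elane: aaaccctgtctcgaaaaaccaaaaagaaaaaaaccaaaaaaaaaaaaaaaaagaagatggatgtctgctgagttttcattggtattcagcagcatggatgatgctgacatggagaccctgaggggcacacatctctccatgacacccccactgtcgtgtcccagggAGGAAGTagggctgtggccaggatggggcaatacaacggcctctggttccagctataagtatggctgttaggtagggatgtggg
Ctsg: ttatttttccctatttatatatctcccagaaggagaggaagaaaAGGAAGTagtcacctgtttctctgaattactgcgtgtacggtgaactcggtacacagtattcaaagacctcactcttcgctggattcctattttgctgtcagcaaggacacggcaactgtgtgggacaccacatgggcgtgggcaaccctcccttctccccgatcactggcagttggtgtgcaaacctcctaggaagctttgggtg
AGGAAGT, searched on both strands, stood once in each of the 4 windows and in 7.69% of the 32851 RefSeq promoter windows of the same length. Its matches lay 223 to 217 bases before the start for Mpo, 206 to 200 for Ctsg, 94 to 88 for Prtn3 and 84 to 78 for Elane. The neighbors Prtn3 and Elane thus held it at nearly the same place, and both also held the TATA-type letters TATAAG, at 32 to 27 bases and at 31 to 26 bases before the start, which 6.65% of all windows held. CAACNG, the core of a MYB site, was found once for Prtn3, once for Elane and 2 times for Ctsg, and in 29.3% of all windows. ATTGC, a C/EBP half-site, was found once for Mpo and once for Elane and in 23.1% of all windows. TGTGGT, a RUNX core, was found once, for Ctsg, and in 4614 of all windows. These motifs were chosen after the windows had been read, and a match of letters is not a measured site.

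Kept cells had a median of 12341 UMIs in Em-Ex (4120 to 38114) and 11729 in YS-Ex (3302 to 34107). Within each library, a gene listed above 0 had UMIs in at least 30 of the deposited barcodes, and the other genes were listed at 0 throughout, 241 genes in Em-Ex and 725 in YS-Ex. Elane and Ctsg were among the genes listed at 0 in YS-Ex, so a small number of positive YS-Ex cells may not appear in the table. Barcodes that occurred in both libraries accounted for 33 Em-Ex cells and 32 YS-Ex cells. Most cells of both cultures carried high Cpa3, the mast cell carboxypeptidase, and the granule genes were followed among cells with under 20 Cpa3 UMIs per 10000 (Cpa3-low). These were 641 Em-Ex cells, 20.9% of that library, and 69 YS-Ex cells, 3.31%. The limit was not a gap in Em-Ex, where 77 cells lay from 10 to under 20 and 96 from 20 to under 30 Cpa3 UMIs per 10000, although 538 lay under 5.

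Mpo and Prtn3 were the abundant members and Elane and Ctsg the scarce ones. Over all Em-Ex cells, Prtn3 stood at 187 CPM (UMIs of a gene per 1000000 UMIs of the pooled cells, with no division by length since a transcript gives 1 UMI whatever its length), with an interval of 183 to 192. Mpo stood at 133.7 CPM (130.3 to 137), Elane at 14.8 CPM (13.7 to 16.0) and Ctsg at 9.61 CPM (8.71 to 10.6). One cell held 36.2% of the Elane UMIs, and without it Elane stood at 9.43 CPM (8.53 to 10.4), an interval that overlapped that of Ctsg. The order of the 2 scarce genes by pooled level thus rested on that cell, whereas Prtn3 and Mpo, at 185 CPM and 131.7 CPM without it, stayed apart from each other and from the scarce genes. In YS-Ex, Prtn3 stood at 22.6 CPM (20.9 to 24.5) and Mpo at 12.2 CPM (10.9 to 13.6), in the same order.

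Both abundant genes were higher in Em-Ex. The ratio of Em-Ex to YS-Ex was 10.95 for Mpo (9.80 to 12.3) and 8.28 for Prtn3 (7.63 to 9.00), and without the barcodes found in both libraries it was 11.7 and 8.91. Of the 2726 genes with at least 50 CPM in 1 of the libraries, 3.96% were at least 2-fold higher in Em-Ex; Elane and Ctsg were under that level and were not compared. Among Cpa3-low cells the ratio was 1.36 for Mpo (1.22 to 1.53) and 1.10 for Prtn3 (1.005 to 1.20). Cells with at least 10 UMIs of the 4 genes per 10000 and low Cpa3, called granule-positive here, were 163 in Em-Ex and 11 in YS-Ex. In these cells, which were chosen by the level that is compared, the Em-Ex level was 0.773 times the YS-Ex level for Mpo (0.688 to 0.871) and 0.662 times for Prtn3 (0.603 to 0.727). The 11 YS-Ex cells carried 3 to 85 UMIs of Mpo and 2 to 105 of Prtn3. The same YS-Ex cell held the highest count of both genes, and without it the ratios were 0.931 for Mpo (0.812 to 1.07) and 0.730 for Prtn3 (0.658 to 0.811), so the Mpo interval then included 1. Of the 11 cells, 5 had a barcode that Em-Ex also used, with 3393 to 5805 UMIs a cell, and the other 6 had 21427 to 34107. Without shared barcodes the ratios in granule-positive cells were 0.744 for Mpo and 0.655 for Prtn3. The number of positive cells, 5.31% of Em-Ex (4.54% to 6.16%) against 0.527% of YS-Ex cells (0.263% to 0.941%), differed in the direction of the pooled levels. Without shared barcodes, 6 of 2055 YS-Ex cells were granule-positive, and 7 of the 163 Em-Ex cells had a shared barcode.

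Low Cpa3 held nearly all of this signal. Em-Ex Cpa3-low cells held 96.6% of the Mpo UMIs, 95.7% of Prtn3, 89.7% of Elane and 93.9% of Ctsg, and YS-Ex Cpa3-low cells held 96.1% of Mpo and 89.5% of Prtn3. In Em-Ex cells with Cpa3 at or above the limit, a UMI of Mpo was seen in 4.86% of cells, of Prtn3 in 5.68%, of Elane in 0.658% and of Ctsg in 0.947%, at a median depth of 11342.5 UMIs, and these shares were used as the background for detection. Of these 2430 cells, 3 passed 10 granule UMIs per 10000. The 3 cells had 15496, 20105 and 32513 UMIs and together accounted for 51 of the 65 Elane UMIs of that class.

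The order of detection among the 641 Em-Ex Cpa3-low cells, at a median of 18290 UMIs a cell, was Prtn3, Mpo, Elane and Ctsg. Prtn3 was seen in 361 cells (56.3%, 52.4% to 60.2%) and Mpo in 310 (48.4%, 44.4% to 52.3%). Elane was seen in 43 cells (6.71%, 4.90% to 8.93%) and Ctsg in 38 (5.93%, 4.23% to 8.05%). The intervals of Elane and Ctsg overlapped, and those of Prtn3 and Mpo stood just apart. After each cell was thinned at random to 3000 UMIs, Prtn3 was seen in 38.1% of cells (34.3% to 42.0%), Mpo in 30.7% (27.2% to 34.5%), Ctsg in 3.43% (2.16% to 5.15%) and Elane in 2.18% (1.20% to 3.64%). The 2 scarce genes changed places, and their intervals overlapped at either depth, so they could not be put in order. After thinning the intervals of Prtn3 and Mpo also touched. These intervals do not use that the genes were scored in the same cells. Prtn3 was seen without Mpo in 107 cells and Mpo without Prtn3 in 56, or 101 and 54 after thinning. Elane was seen without Ctsg in 24 cells and Ctsg without Elane in 19, or 12 and 20 after thinning. Computed without a random draw, the share expected at 3000 UMIs was 37.8% for Prtn3, 31.4% for Mpo, 3.12% for Ctsg and 2.33% for Elane. Background shares after thinning were 1.52% for Prtn3, 1.11% for Mpo and 0.206% for Elane and for Ctsg.

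**Figure D1:**
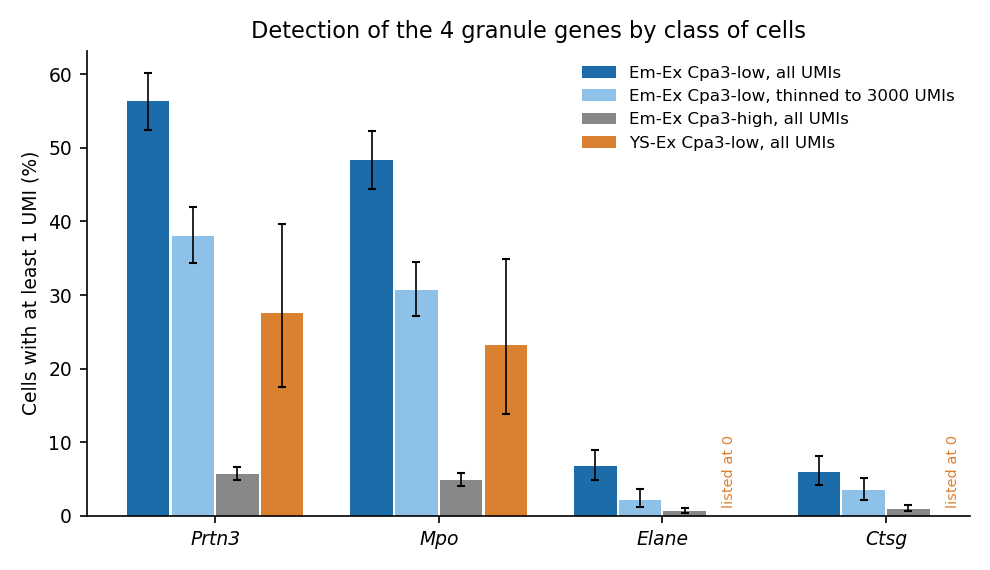
Share of cells with at least 1 UMI of each gene (bars, percent of cells; lines, exact 95% binomial intervals) in Em-Ex Cpa3-low cells with all UMIs and thinned to 3000 UMIs, in Em-Ex Cpa3-high cells and in YS-Ex Cpa3-low cells. Prtn3 at 56.3% and Mpo at 48.4% of Em-Ex Cpa3-low cells stand far above Elane at 6.71% and Ctsg at 5.93%, which are listed at 0 in YS-Ex.

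Among the 69 YS-Ex Cpa3-low cells, at a median of 11142 UMIs, Prtn3 was seen in 19 (27.5%, 17.5% to 39.6%) and Mpo in 16 (23.2%, 13.9% to 34.9%). In YS-Ex cells with higher Cpa3 the shares were 2.87% for Prtn3 and 0.595% for Mpo. Prtn3 thus came first in both libraries, with overlapping intervals in YS-Ex, and 14 of the 16 cells with Mpo also had Prtn3. Without shared barcodes, Prtn3 was seen in 14 and Mpo in 10 of 60 cells.

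Detection also follows how much of a transcript a library holds, so each gene was brought to the pooled level of Ctsg, the lowest of the 4. At that level Prtn3 would be seen in 160 cells, Mpo in 153, Elane in 34.3 and Ctsg in its 38. Without the cell with most Elane UMIs, Elane was the lowest, at 338 UMIs, and at that level Prtn3 would be seen in 151 cells, Mpo in 144, Ctsg in 37.3 and Elane in its 42. Equal totals narrowed the gap, and either way Prtn3 and Mpo were still spread over more cells than Elane and Ctsg. Within Cpa3-low cells, 46 cells held 50% of the Prtn3 UMIs and 44 cells held 50% of the Mpo UMIs, against 6 cells for Ctsg and 2 for Elane. One cell of 26214 UMIs carried 229 Elane UMIs, 40.4% of all Elane UMIs among Cpa3-low cells, beside 87 of Mpo, 123 of Prtn3 and 0 of Ctsg. It also held 310 UMIs of S100a8, 120 of S100a9 and 200 of Stfa1, genes of later neutrophil stages, and results that rest on it are given below without it as well. The top cell for Ctsg held 57 UMIs, 14.8% of that gene's total in Cpa3-low cells.

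Among Em-Ex Cpa3-low cells, Ctsg was nested within Mpo and Prtn3, and Elane nearly so within Prtn3. Of the Cpa3-low cells, 222 (34.6%) had none of the 4, 199 had Mpo and Prtn3 alone, 102 had Prtn3 alone and 56 had Mpo alone. All 4 were found in 19 cells, 2.96% (1.79% to 4.59%). Mpo and Prtn3 with Ctsg were found in another 19 cells, and Mpo and Prtn3 with Elane in 17. All 38 cells with Ctsg had both Mpo and Prtn3, for which the lower bound of the share was 90.7%. Of the 43 cells with Elane, 41 had Prtn3 (95.3%) and 36 had Mpo (83.7%), and 2 had none of the other 3 genes. In the other direction, Elane was seen in 11.6% of the cells with Mpo and Ctsg in 12.3%. Elane and Ctsg were not nested in each other: 19 cells had both, 24 had Elane without Ctsg and 19 had Ctsg without Elane. After thinning to 3000 UMIs the 14 cells with Elane and the 22 with Ctsg all had Mpo and Prtn3, and 2 cells had both scarce genes. In Cpa3-high cells, where detection was taken as background, the genes were not nested: 16 of 23 cells with Ctsg and 14 of 16 with Elane had no other member, and no cell with Ctsg had both Mpo and Prtn3.

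**Figure D2:**
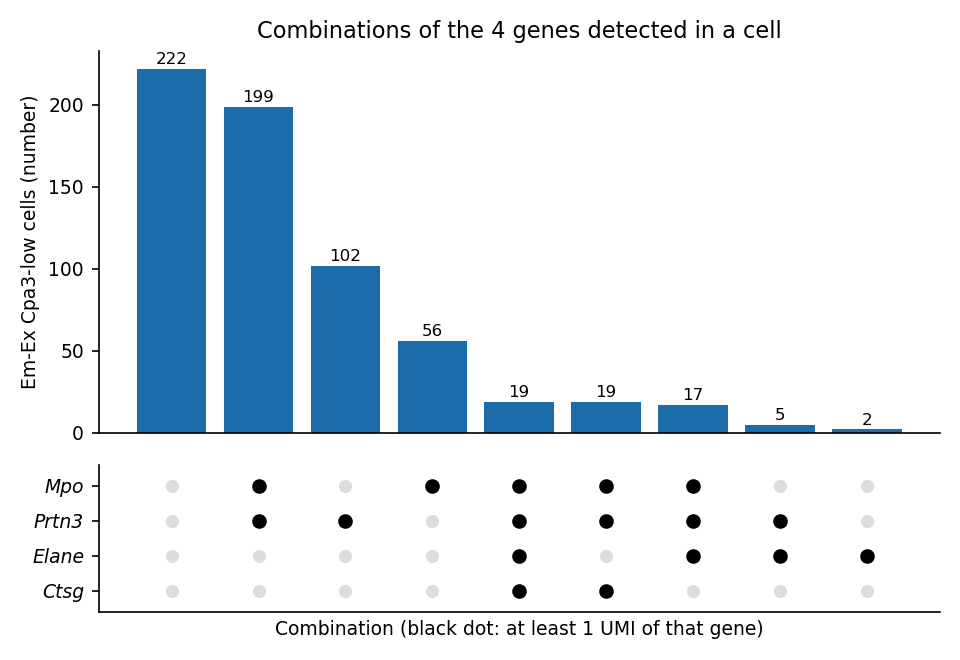
Number of Em-Ex Cpa3-low cells (bars) with each combination of the 4 genes; black dots below mark genes with at least 1 UMI. The 222 cells with no member and the 199 with Mpo and Prtn3 are the 2 commonest classes, and no Em-Ex Cpa3-low cell had Ctsg without both Mpo and Prtn3.

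Elane and Ctsg were seen chiefly where Mpo and Prtn3 together passed 30 UMIs per 10000. Among the 64 cells past that level, 27 had Elane (42.2%, 29.9% to 55.2%) and 28 had Ctsg (43.8%, 31.4% to 56.7%). From over 10 to 30 UMIs per 10000, 7 of 99 cells had Elane (7.07%) and 9 had Ctsg (9.09%), and neither interval reached that of the cells past 30. Below 10, in 478 cells, Elane was seen in 9 cells, each with 1 UMI, and Ctsg in 1 cell with 1 UMI. The Elane shares at these levels, 0.893% to 3.67%, had intervals that overlapped that of Cpa3-high cells. Deeper cells lay at the top, with a median of 26031 UMIs past 30 against 12546 at 0, and thinned shares were lower. For Elane they were 18.8% past 30 (10.1% to 30.5%) and 2.02% from over 10 to 30 (0.246% to 7.11%), intervals that stayed apart. For Ctsg they were 23.4% (13.8% to 35.7%) and 7.07% (2.89% to 14.03%), intervals that overlapped. The 2 scarce genes differed in how their amount compared with that of the abundant pair. For every 100 UMIs of Mpo and Prtn3, cells from over 10 to 30 held 0.204 UMIs of Elane (0.0881 to 0.403) and cells past 30 held 7.10 (6.50 to 7.74), or 4.26 without the cell of 229 Elane UMIs. For Ctsg these were 1.51 (1.14 to 1.95) and 4.21 (3.76 to 4.70), or 3.57 past 30 without the top Ctsg cell. The Elane amounts rested on few cells. Among granule-positive cells with Elane the median was 1.5 UMIs, and 2 cells held 50% of its UMIs, against a median of 6 UMIs and 6 cells for Ctsg.

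**Figure D3:**
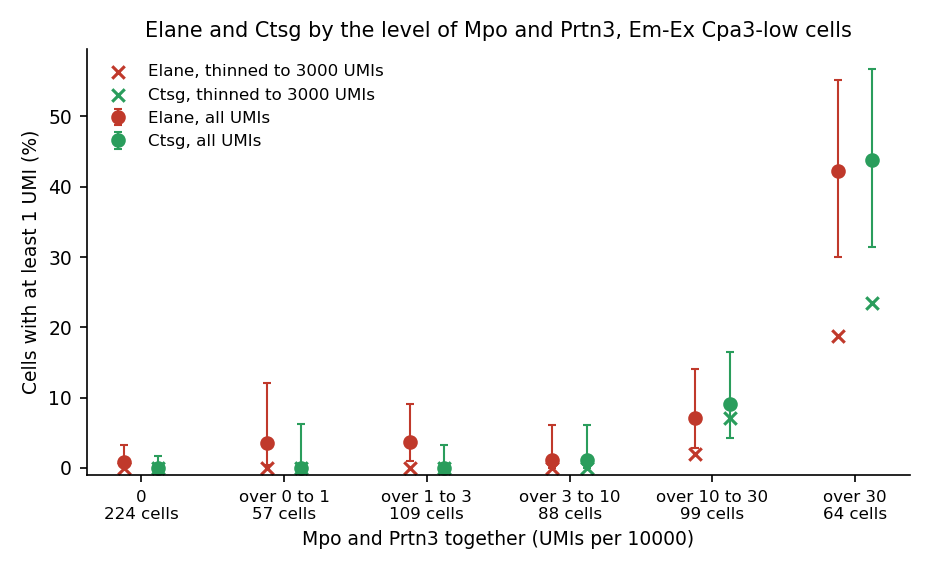
Share of Em-Ex Cpa3-low cells with Elane (red) or Ctsg (green) by the summed level of Mpo and Prtn3 (UMIs per 10000); circles with exact 95% binomial intervals use all UMIs and crosses use cells thinned to 3000 UMIs. Shares stay at or under 9.09% up to 30 UMIs per 10000 and are 42.2% for Elane and 43.8% for Ctsg above it.

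Among the 163 granule-positive Em-Ex cells the members varied widely. Mpo ranged from 0 to 52.0 UMIs per 10000 with a median of 10.3, and Prtn3 from 0 to 76.5 with a median of 12.8. Elane reached 87.4 in its highest cell and Ctsg 17.3, with medians of 0. Prtn3 was above Mpo in 111 of the 163 cells and below it in 49, and Mpo made up a median of 41.6% of the 2 genes' UMIs, with quartiles of 29.2% and 53.8%. The pooled ratio of Prtn3 to Mpo was 1.38 (1.33 to 1.43) in Em-Ex and 1.61 (1.39 to 1.87) in the 11 YS-Ex cells, intervals that overlapped. Spearman correlations between members over the 163 cells ran from 0.37 for Mpo and Ctsg to 0.49 for Prtn3 and Elane. All levels share the depth of their cell, with which the members correlated at 0.16 to 0.26. After thinning the 6 correlations ran from 0.01 for Elane and Ctsg to 0.40 for Mpo and Prtn3. Thinning left UMIs of Elane in 14 of these cells and of Ctsg in 22. The parts of depth and of lost counts in the lower values were not tested. In the 111 cells with neither Elane nor Ctsg, Mpo and Prtn3 together had a median of 18.3 UMIs per 10000. The median was 34.9 in the 18 cells with Ctsg alone of the 2 scarce genes, 38.7 in the 15 with Elane alone and 48.8 in the 19 with both. The cut at 10 was not a gap, since 15 Cpa3-low cells lay from 8 to under 10 and 17 from 10 to under 12.

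**Figure D4:**
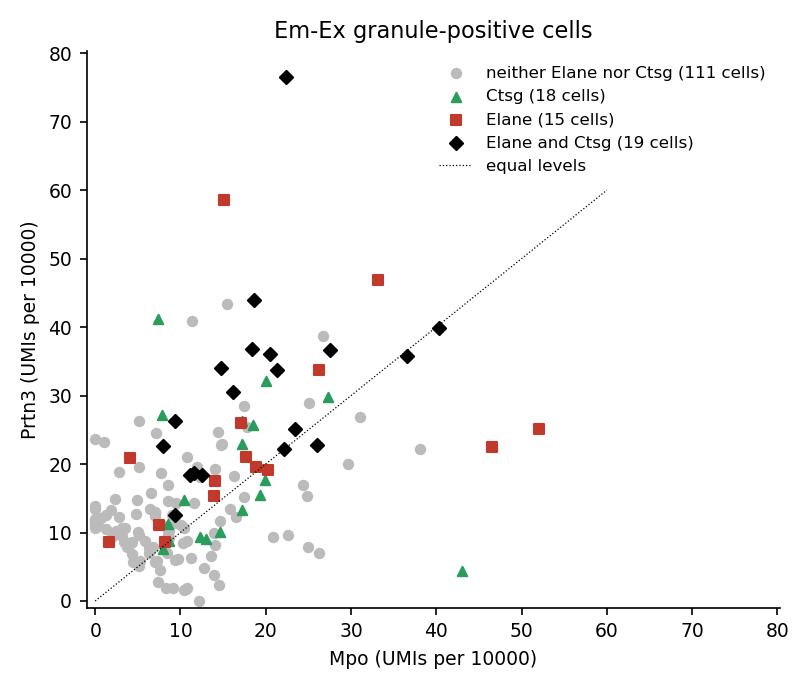
Mpo (x axis) against Prtn3 (y axis), both in UMIs per 10000, for the 163 granule-positive Em-Ex cells, by detection of Elane and Ctsg; the dotted line marks equal levels. Prtn3 is above Mpo in 111 cells, and the 19 cells with both Elane and Ctsg lie toward the upper end, with a median sum of Mpo and Prtn3 of 48.8.

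Granule-positive cells were compared with the cell type lists to see what else they expressed. Of 12 neutrophil progenitor genes, 8 were in the table, with a summed level of 389 CPM in granule-positive cells, 171 CPM in other Cpa3-low cells and 327 CPM in Cpa3-high cells. Cst7, a cystatin, was at 122 CPM in granule-positive cells and 257 CPM in Cpa3-high cells, so the summed list did not separate them. Hp (haptoglobin) was at 70.6, 12.3 and 0.684 CPM in the 3 classes in that order, Clec12a (an inhibitory lectin receptor of myeloid cells) at 51.1, 8.82 and 0.586 CPM, and Csf3r, the G-CSF receptor, at 19.3, 9.92 and 0.293 CPM. Other genes of the list did not follow this order. Gfi1, a transcription repressor of granulocyte precursors, was at 13.3, 8.09 and 16.7 CPM, and Igsf6 at 7.19, 8.21 and 1.08 CPM. Cebpa, which encodes C/EBP alpha, was at 37.5 CPM against 9.56 and 0.521 CPM. In YS-Ex, Hp, Clec12a, Csf3r and Cebpa were among the genes listed at 0 throughout the library. A small number of positive YS-Ex cells may therefore be missing, and their level in the granule-positive YS-Ex cells is not known. Of 14 genes of later granules and neutrophil maturation, 5 had a row; Ltf, Camp, Ngp and Lcn2 had none and were not analysed here, and the 5 summed to 141 CPM in granule-positive cells, 364 CPM in other Cpa3-low cells and 5.73 CPM in Cpa3-high cells. The cell with most Elane UMIs held 430 of the 549 UMIs behind the first sum, which was 30.8 CPM without it, and 1 other cell held 51.4% of those behind the second, which was 177 CPM without that cell. S100a8 was seen in 3.68% of granule-positive cells. The mast cell list of 15 genes summed to 854 CPM in granule-positive cells, 3077 CPM in other Cpa3-low cells and 41796 CPM in Cpa3-high cells. The 17 monocyte and macrophage genes summed to 302, 1185 and 380 CPM. Of the eosinophil genes, Siglecf was at 7.70 CPM and Il5ra at 0 in granule-positive cells, and Epx and Prg2 had no row.

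Over all Em-Ex Cpa3-low cells, those with the most granule UMIs had lower summed levels of the mast cell, the monocyte and macrophage, and the erythroid lists, and higher levels of Plppr3, Hp and Runx1. The top tertile by the sum of the 4 genes (214 cells, from 5.17 UMIs per 10000 up) was compared with the bottom tertile, which was made up of the 222 cells with none. Of 2781 genes with at least 50 CPM in 1 of the 2 groups, 2.34% were at least 2-fold higher and 8.88% at least 2-fold lower in the top tertile, the 4 members themselves included among the higher ones by construction. These were 65 higher and 247 lower genes, against 169 and 310 with a Cpa3 limit of 50 per 10000 and 156 and 301 after thinning, so the balance of higher and lower genes rested on these choices. Median depth was 23203 against 12546 UMIs, and Cpa3 itself was at 195 against 493 CPM; their part in the ratios was not tested. Values below are log2 ratios of pooled CPM with a prior count of 0.5. A gene that reached 50 CPM in 1 tertile alone tended to differ by that choice, so list counts are given over genes that reached it in both. Of those 2089 genes, 0.862% were at least 2-fold higher and 3.02% at least 2-fold lower.

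Plppr3, encoding a phospholipid phosphatase related membrane protein, had the largest ratio outside the members among the genes compared, at 3.93. It stood at 95.3 CPM against 6.08 CPM, with UMIs in 169 of 214 against 18 of 222 cells. It is also the gene next to Prtn3, on the other strand of chromosome 10 (79860475 to 79874958). Their RefSeq models start 4708 bases apart, whereas their GENCODE M21 models overlap by 159 bases, and the use of strand in counting is not given in the sources used here. The position was noticed after the ratio had been seen. Plppr3 was found in 68.7% of Cpa3-low cells with Prtn3 and in 11.1% of those without it. Among cells with Mpo and no Prtn3 the share was 21.4% (11.6% to 34.4%), and among cells with Prtn3 and no Mpo it was 55.1% (45.2% to 64.8%), at median depths of 15383.5 and 18290 UMIs. Over the 163 granule-positive cells the Spearman correlation of Plppr3 was 0.17 with Prtn3 and 0.16 with Mpo. In Cpa3-high cells it was seen in 0.700%, and in YS-Ex it was listed at 0. Within granule-positive cells it was seen in 86.5%, at 109 CPM.

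Next in size were Hp at 3.11, Cox4i2 (a subunit of cytochrome c oxidase) at 3.06, Bex6 at 2.67, Ramp1 (a partner of the calcitonin receptor-like receptor) at 2.26, Cd48 (a surface protein of multipotent progenitors and leukocytes) at 2.24, AI662270 at 2.05, Adgrg3 (an adhesion G protein-coupled receptor of granulocytes) at 1.95, Ydjc at 1.94 and BC035044 at 1.93. Among the myeloid transcription factors, Runx1 and Spi1 reached 50 CPM in both tertiles, Runx1 at 1.01 (111 against 54.8 CPM) and Spi1, which encodes PU.1, at 0.35 (217 against 169.7 CPM). Myc at 120.2 against 44.8 CPM, Myb at 84.6 against 35.9 CPM and Irf8, a factor of monocyte and dendritic fate, at 71.2 against 27.2 CPM reached it in the top tertile alone, and Gata2, at 20.2 against 139.6 CPM, in the bottom one alone. Cebpa was under 50 CPM and was not among the genes compared, with 34.0 CPM in 92 cells against 6.73 CPM in 16 cells. The list of 16 stem and multipotent progenitor genes, which holds Cd48, had sums of 1059 against 1042 CPM, and its genes did not all go one way. Of its 6 genes compared, 3 were above 0. Adgrg1 and Cd48 were at least 2-fold higher and none was at least 2-fold lower, beside 2.34% and 8.88% of all genes compared. Its 3 genes at 50 CPM in both tertiles were Cd34 at -0.09, Sox4 at -0.02 and Ly6a at -0.68 (242 against 387 CPM), whereas Adgrg1 stood at 113 against 45.2 CPM. Ly6c2, a surface protein of monocytes and granulocyte precursors, was also under the limit of 50 CPM, with 45.7 CPM in 28 cells against 1.92 CPM in 2 cells (log2 ratio 4.46) and 37.5% of its UMIs in 1 cell.

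The 10 smallest ratios included genes of macrophages and red cells. Fn1 (fibronectin) had no UMI in the top tertile and stood at 55.4 CPM in the cells with none. Mmp12, a macrophage protease, stood at 0.202 against 133.9 CPM. Actc1 stood at -8.15, Hba-a1 (alpha globin) at -7.65, Spp1 at -7.07, Mt2 at -6.93, Ccl12 at -6.74 and Ccl2 at -6.53. Several rested on few cells, since Actc1 was seen in 5 of the 222 cells with none and 1 cell held 49.8% of the Hba-a1 UMIs. The mast cell list summed to 1007 against 5406 CPM. Apart from Cpa3, which the choice of cells limits, 5 of its genes reached 50 CPM in both tertiles, namely Cma1 (-2.70), Tpsb2 (-2.54), Hdc, Kit and Cd63. These 5 were at least 2-fold lower, beside 3.02% of all genes at that level, although UMIs were found in about as many cells of either tertile, for Cma1 in 211 of 214 against 211 of 222. The monocyte and macrophage list summed to 339 against 2229.6 CPM, and its genes did not all go one way. Lyz2 at -2.06 and Apoe at -3.23 reached 50 CPM in both tertiles, C1qb at 2.63 against 236 CPM and Ctss at 11.3 against 229 CPM in the cells with none alone, and Ly6c2 was the reverse of these, as given above. Detection of Lyz2 and Apoe did not follow their pooled levels, with UMIs of Lyz2 in 90 cells of the top tertile against 56 and of Apoe in 91 against 78. The erythroid list summed to 1215 against 4376 CPM, and Hbb-bt of the beta globins, its 1 gene past 50 CPM in both, stood at -0.92, with UMIs in 187 of 214 against 102 of 222 cells. Among cytokine receptor genes, Kit at -1.19 and Csf2rb at -1.54 reached 50 CPM in both tertiles. Of the 5 compared, 4 were at least 2-fold lower, beside 8.88% of all genes compared, and Flt3 stood at 0.72 (52.4 against 31.7 CPM). Under the limit, Csf3r (19.4 against 7.37 CPM) and Il6ra (15.6 against 4.80 CPM) were higher and Csf1r (6.07 against 32.3 CPM) was lower. The chymase genes beside Ctsg were lower in the top tertile, with Mcpt1 at 28.5 against 465 CPM, Mcpt2 at 37.4 against 792 CPM and Mcpt4 at 18.4 against 332 CPM, all past the limit in the cells with none alone. Of the 6 genes compared that process or store granule proteases, 3 were at least 2-fold lower and none was higher. These were Ctsc at -1.23, Srgn at -1.26 and Cd63 at -2.25. All 6 reached 50 CPM in both tertiles, where 3.02% of all genes were lower. Cpa3-high against granule-positive cells held Srgn at 4393 against 425 CPM, Cd63 at 1579 against 144 CPM and Ctsc at 283 against 64.4 CPM. The part of mast cell transcript in the lower levels was not tested. Of the heme synthesis genes, Alad (25.7 against 54.1 CPM), Urod (32.6 against 76.5 CPM) and Cpox (13.1 against 79.1 CPM) reached 50 CPM in the cells with none alone. None of 13 endoplasmic reticulum folding genes, 4 NADPH oxidase genes, 13 S phase genes or 16 G2 and M phase genes at 50 CPM in both passed 2-fold either way. Their medians were 0.25, -0.22, 0.24 and -0.09, beside 0.05 over all genes compared.

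Within granule-positive cells, Calr, Pdia6, Sdf2l1 and Hspa5, which serve protein folding in the endoplasmic reticulum, and Xbp1, Anxa3 and Clec12a were higher where the sum was high, and Ly6a, Mycn and Gimap6 were lower. The top tertile (54 cells, 33.2 UMIs per 10000 and up, median depth 27012.5) was set against the bottom tertile (55 cells, 17.6 and under, median depth 22000), of which 37 and 2 cells had Elane or Ctsg. Of 2615 genes compared, 0.994% were at least 2-fold higher and 0.994% at least 2-fold lower, and the 26 higher genes again included the 4 members. After thinning, 183 were higher and 222 lower. All 13 folding genes at 50 CPM in both tertiles were above 0 in log2 ratio, with a median of 0.71 beside 0.01 over all genes, and 4 of them were at least 2-fold higher, beside 0.545% of the 2201 genes at 50 CPM in both and 0.227% that were at least 2-fold lower. Calr, encoding the chaperone calreticulin that binds newly made myeloperoxidase, was at 1066 against 500 CPM (log2 ratio 1.09, a ratio of 2.13 with an interval of 1.94 to 2.35). Pdia6, a disulfide isomerase, stood at 1.10, Sdf2l1 at 1.35 and Hspa5, the chaperone BiP, at 1.03, the last just under 2-fold without the cell with 229 Elane UMIs. Xbp1, a transcription factor of secretory capacity, stood at 1.59, with 224 against 74.3 CPM. Hsp90b1 stood at 0.83 and Manf at 0.73. Alas1, the first enzyme of heme synthesis, stood at 55.7 against 23.6 CPM, past the limit in the top tertile alone.

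The other genes at the top were Ly6c2 at 3.72, F630028O10Rik at 2.44, Anxa3 (annexin A3, of neutrophil granules) at 2.22, Hp at 1.97, Ap3s1 at 1.97 and Clec12a at 1.96. Ap3s1 encodes a subunit of the AP-3 adaptor, which sorts cargo to lysosome-related organelles. Ly6c2 came from 17 against 3 cells, with 39.6% of its UMIs in 1 cell. S100a8 (6.75, a ratio of 134 with an interval of 36.9 to 1115), S100a9 (4.90, a ratio of 34.8 with an interval of 11.6 to 171) and Stfa1 (3.56) were also among the 10 largest, but the cell with 229 Elane UMIs held 95.7%, 93.8% and 68.3% of their UMIs, and without it they stood at 2.09, 0.42 and 1.70. S100a8 was seen in 2 cells of each tertile. Of the other 7, Clec12a moved most without that cell, to 1.71.

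At the lower end were Ifi27l2a (interferon induced) at -2.52, Ccl3 (a chemokine) at -2.39, Mycn at -2.36, Ly6a, which encodes Sca-1, at -2.28, Mcpt1 at -2.27, Wfdc17 at -2.27, Gimap6 at -2.06, Apoe at -1.86, Mcpt2 at -1.85 and Tsc22d1 at -1.70. Ly6a was at 74.7 against 365 CPM and was seen in 25 of 54 against 48 of 55 cells, and Mycn was seen in 15 against 43 cells. Mcpt1 rested on few cells, with 70.1% of its UMIs in 1. The 1 erythroid gene compared, Hbb-bt, stood at 654 against 1442 CPM (-1.14). None of the 5 myeloid transcription factors at 50 CPM in both tertiles passed 2-fold, with Irf8 at -0.01, Runx1 at -0.26 and Spi1 at 0.33. None of 15 S phase and 12 G2 and M phase genes chosen the same way passed it either. Srgn stood at 0.53 and Ctsc at -0.55. The mast cell list summed to 798 against 1002 CPM and the monocyte and macrophage list to 235 against 314 CPM, so neither sum was 2-fold apart. Of the 22 higher genes outside the members, 3 (Hp, Mgst1 and Rgcc) were also among the 61 of the comparison over all Cpa3-low cells, that is 13.6% of the first list and 4.92% of the other. Of the 26 lower genes, 10 were also among the 247 lower ones of that comparison, or 38.5% and 4.05%, Apoe, Hdc, Ifi27l2a, Mcpt1 and Mcpt2 among them.

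**Figure D5:**
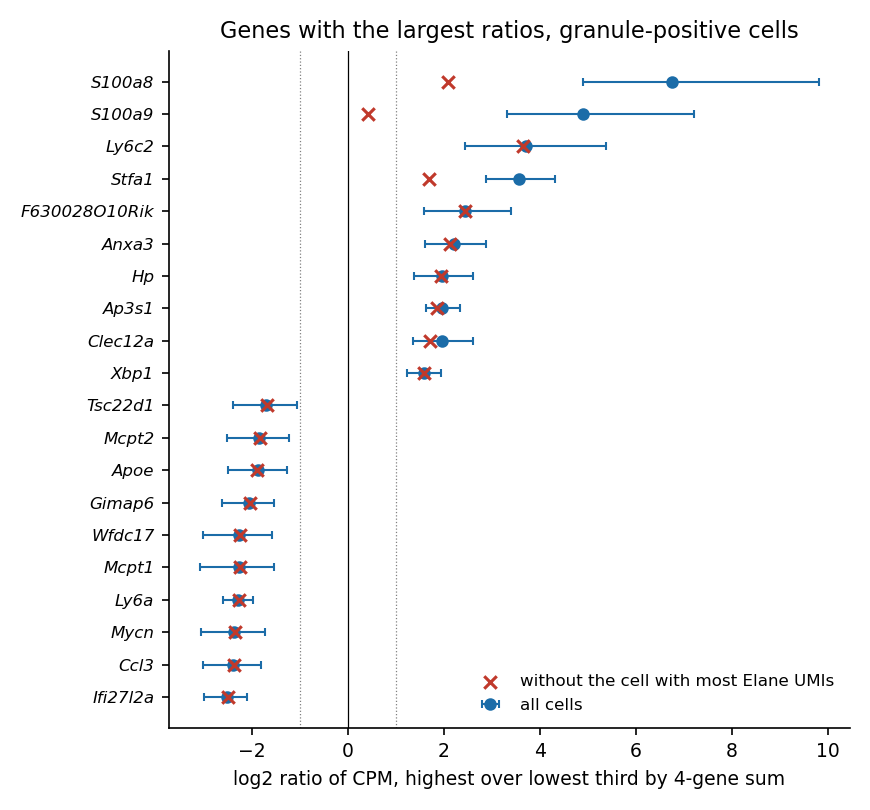
Log2 ratio of CPM, top over bottom tertile of granule-positive Em-Ex cells by the sum of the 4 genes, for the 10 largest and 10 smallest ratios outside the members. Circles with exact 95% intervals use all cells, crosses leave out the cell with 229 Elane UMIs, and dotted lines mark 2-fold; S100a8, S100a9 and Stfa1 move most, from 6.75 to 2.09, from 4.90 to 0.42 and from 3.56 to 1.70.

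Cells were last ordered by the share of Elane and Ctsg among their granule UMIs, in the 153 granule-positive cells with at least 20 such UMIs. The top tertile (51 cells, all with Elane or Ctsg) was set against 102 cells with neither. Mpo and Prtn3 also differed between these groups, at 1749 against 991 CPM and 2507 against 1351 CPM, so the share was not separated from the sum. Of 2549 genes, 0.432% were at least 2-fold higher and 0.51% at least 2-fold lower, with Elane and Ctsg among the higher ones by construction. The balance of 11 higher and 13 lower genes did not hold under other choices, with 170 and 112 after thinning and 13 and 7 with no upper limit of genes per cell. S100a8 (a ratio of 295 with an interval of 81.1 to 2449), Stfa1 and S100a9 (a ratio of 76.2 with an interval of 25.5 to 374) stood at 7.89, 6.35 and 6.03, and at 3.33, 4.70 and 1.55 without the cell with 229 Elane UMIs. Anxa3 stood at 1.87, Xbp1 at 1.45, Ap3s1 at 1.39, Fkbp11 (a folding enzyme of the endoplasmic reticulum) at 1.21, Hdc (histidine decarboxylase) at 1.17 and Clec12a at 1.09. Clec12a stood at 0.77 without that cell, under 2-fold, and 26.4% of the Hdc UMIs came from 1 cell. In the order by the sum Hdc had been lower, at 41.6 against 83.5 CPM. Slc48a1, a heme transporter, was next at 0.93.

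Ly6a had the smallest ratio, at -2.89, with 42.0 against 314 CPM, and UMIs in 19 of 51 against 86 of 102 cells. It was followed by Il12a at -2.13, Ifi27l2a at -2.07, Ccl3 at -1.78, Mcpt2 at -1.56, Tsc22d1 at -1.19, Dusp5 at -1.18, Ifi203 at -1.14, Rtp4 at -1.13 and Smagp at -1.10. None of the 13 folding genes at 50 CPM in both groups passed 2-fold, beside 0.0896% of 2232 such genes higher and 0.0448% lower, and 12 were above 0, with a median of 0.49 beside 0.01 over all genes. Ordering by the sum and ordering by the share named partly the same genes from overlapping cells: 8 higher genes were in both, which is 36.4% of 22 and 88.9% of 9, and 7 lower genes, which is 26.9% of 26 and 53.8% of 13.

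Genes most like each member over the 163 granule-positive cells were ranked by Spearman correlation among 2393 genes with at least 50 CPM, as a description. For the sum of the 4 these were Pdia6 (0.51), Calr (0.49), Anxa3 (0.49), Ap3s1 (0.47) and Clec12a (0.46), and the 5 smallest were Gimap6 (-0.49), Mycn (-0.48), Ly6a (-0.44), Lsp1 (-0.41) and Ppdpf (-0.39). Mpo went with Calr (0.50), Pdia6 (0.49), Nt5dc2 (0.45), Ap3s1 (0.44) and Mgst1 (0.37). Prtn3 went with Plac8 (0.51), Anxa3 (0.47), Clec12a (0.46), Emb (0.43) and Hp (0.40). Pdia6 (0.38) and Calr (0.37) were among the 10 genes nearest to Prtn3 as well, and Clec12a (0.34) among the 10 nearest to Mpo. Elane went with Xbp1 (0.41), Anxa3 (0.40), Msrb1, Sec61b and Sec61g (each 0.36), and Ctsg with Sec61b (0.41), Anxa3 (0.38), Calr, Tuba4a and Xbp1 (each 0.36). Anxa3, Xbp1 and Sec61b, the last encoding a part of the translocon through which secreted proteins enter the endoplasmic reticulum, were on both lists. The levels share their cell's depth, with which Anxa3 correlated at 0.19 and Sec61b at 0.27.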

How the data were processed

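The 10X Chromium libraries, 1 from Em-Ex and 1 from YS-Ex, were deposited by the authors as 1 table of raw UMI counts per gene and cell barcode. The submitters' processing notes name Cell Ranger 2.0.1 and bcl2fastq 2.19.1.403 and the genome mm10; the annotation release is not given in the sources used here. The counts were not normalized before deposit. Barcodes with 1000 to 5000 genes and at most 5% of UMIs from 13 mitochondrial genes were kept, the limits that the study's methods state, which left 3071 of 3504 Em-Ex and 2087 of 3037 YS-Ex barcodes. No doublet caller was run beyond the upper limit of genes.

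UMIs were summed over cells and given as CPM, with exact 95% Poisson intervals, exact Clopper-Pearson intervals for shares and exact conditional intervals for ratios, all covering counting error only. A gene was compared where 1 of the 2 groups reached 50 CPM, log2 ratios had a prior count of 0.5, and a gene was counted as higher or lower from 2-fold on. With 1 library per condition no p-value was computed. Cells were thinned to 3000 UMIs by a seeded draw, and none was shallower. Named genes were the members, the 10 largest and 10 smallest ratios in each order of cells, the 5 nearest genes by Spearman correlation, and the list members with the highest CPM; other genes of the lists (Hp, Csf3r, Gfi1, Igsf6, Cebpa, Mcpt1, Mcpt2, Mcpt4, Alad, Urod, Cpox and those past 2-fold) were named after their values had been seen, and some genes that the rule names are not reported here. The members and lists were chosen with earlier results of these data known. Promoter windows and positions were read from RefSeq and GENCODE models on GRCm38.p6. Python 3.11.15, numpy 2.4.6, scipy 1.17.1, pandas 2.3.3 and matplotlib 3.10.9 were used, and the ratios and intervals were tested on simulated data. Alternatives were other cell filters, Cpa3 limits, scaling, prior count, gene filter, quartiles in place of tertiles, and thinning; leaving out shared barcodes, leaving out the cell with most Elane UMIs, leaving out the YS-Ex cell with most Mpo UMIs and summing Mpo and Prtn3 alone were added after seeing the data.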

Additional observations from a re-analysis of the deposited data

How the results depend on the processing

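The log2 ratio of the 4-gene sum, Em-Ex to YS-Ex, was 3.31 and stayed positive under all 7 alternatives. It was 3.17 with no upper limit of genes, 3.47 with a mitochondrial limit of 10%, 2.93 as a mean over cells, 3.41 without shared barcodes and 3.20 for Mpo and Prtn3 alone. The share of Cpa3-low cells with all 4 genes, 2.96%, was 0.312% after thinning to 3000 UMIs and 1.86% with a Cpa3 limit of 50 per 10000. At that limit the thinned shares were 19.8% for Mpo, 25.1% for Prtn3, 2.15% for Ctsg and 1.47% for Elane. All 6 pairs of genes kept the order seen after thinning under 7 alternatives, and 5 with all UMIs, where Elane came before Ctsg. Over Cpa3-low cells, 312 genes were at least 2-fold apart; these were 479 with a Cpa3 limit of 50 per 10000, 457 after thinning, 370 as a mean over cells (100 higher, 270 lower) and 2295 with no filter on low genes. Among granule-positive cells by the sum, 52 genes became 1821 with no filter, 89 between the outer quartiles and 405 after thinning, and 48 without the cell with most Elane UMIs. By the share of Elane and Ctsg, 24 genes became 1429 with no filter and 282 after thinning, and 21 without that cell. Without a filter, and after thinning, the counts rest on fewer UMIs per gene; for the other moves the cause was not tested. No paired analysis was possible because each condition was 1 library. Counting error was the only error measured, and differences between cultures cannot be told apart from differences between libraries.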

Other observations

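The upper limit of 5000 genes removed a class of barcodes rich in granule transcript. Of 82 Em-Ex barcodes over that limit, 35 had low Cpa3 and at least 10 UMIs of the 4 genes per 10000 (42.7%, 31.8% to 54.1%), against 163 of the 3071 kept (5.31%). Median depth of the 35 was 39795 UMIs, and that of the 163 was 23967. Of the 35, 11 held 382 Elane UMIs in all and 9 held 89 Ctsg UMIs. For Elane, the kept granule-positive cells held 558 UMIs in 34 cells. In YS-Ex, 4 of 34 barcodes over the limit were granule-positive (11.8%, 3.30% to 27.5%). Among barcodes over the mitochondrial limit, Em-Ex had 1 such barcode of 353 and YS-Ex had 0 of 917, with an upper bound of 0.401%. Whether the barcodes over the gene limit held 1 cell or more was not tested.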
